A study of Mus musculus with 20 samples.

Results

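Mouse embryos at the 2-cell stage were compared with oocytes on 8 of the 20 arrays of a series on preimplantation development, 4 arrays titled 2-Cell and 4 titled Oocyte. Messenger RNA was measured on Affymetrix MOE430B arrays, which carry short probes in groups called probe sets, and per the labels the total RNA was amplified by in vitro transcription in 2 rounds. The oocyte group is RNA of unfertilized mouse eggs, the 2-cell group is RNA of embryos after the first cleavage, and 4 arrays of 1-cell embryos were set beside them. No treatment is named for any of the 3 groups; strain, age, the maturation state of the oocytes, the hours after fertilization and the number of cells pooled are likewise not given in the sources used. All 22511 probe sets other than controls were compared, of which 14661 carry 1 gene symbol, and these stand for 9607 named genes.

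A grown oocyte is filled with stored messenger RNA and transcribes little. After fertilization the embryo lives on this maternal store while it is being destroyed, and in the mouse the embryo's own genome becomes broadly active at the 2-cell stage. Maternal-effect genes, such as those of the subcortical maternal complex, act from the store, whereas the first embryonic genes include homeobox, PRAME-like and zinc finger families and the machinery that makes ribosomes and processes RNA.

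Values are intensities, the brightness of a probe set on an arbitrary linear scale, and means are given ± SD over the 4 arrays of a stage. Differences are on the log2(value + 20) scale, where the added 20 understates changes of dim probe sets, and a probe set was called at an adjusted p under 0.05 by limma. Arrays had been scaled to a common mean, so each difference is relative to the other messages in the sample. In these bulk samples fewer cells and less RNA per cell cannot be told apart. Nothing in the labels says whether same-stage arrays are separate collections of cells, so a p-value reflects only how these arrays vary, which may be technical.

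Array medians lay between 67.8 and 80.1 in oocytes and between 80.9 and 87.5 at the 2-cell stage, and the median difference over all probe sets was 0.08. Of the markers looked for, 2 of 9 for oocytes and 2 of 9 for 2-cell embryos were on the array: Zar1 and Bmp15 were bright in oocytes, and Obox6 and Ubtfl1 were bright at the 2-cell stage and dim in oocytes. 1 array stood apart, 2-cell replicate 1. Over all probe sets it correlated with the oocyte mean at 0.857, against 0.823 to 0.828 for the other 3. Its summed intensity over the 49 measured oocyte and maternal-effect genes was 208539, against 107821 to 146134 on the other 2-cell arrays and 356544 to 431736 in oocytes. What sets it apart was not tested. All 18 bacterial hybridization controls averaged higher at the 2-cell stage, by a mean of 0.56.

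At the 2-cell stage 1807 probe sets were higher than in oocytes and 1452 were lower. These are 8.03% and 6.45% of the probe sets tested, or 14.5% together. All 4 2-cell arrays lay above all 4 oocyte arrays for 2523 probe sets (11.2%) and below them for 1894 (8.41%). Without 2-cell replicate 1 the counts were 1718 and 1412. With each array divided by its own median, which moves the median of all probe sets to -0.06, they were 1304 higher and 1960 lower, so the share of calls that were higher went from 55.4% to 40%. The balance of rises and falls therefore rests on the scaling.

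The probe sets called higher had a median intensity of 73.3 in oocytes, 84.2 at the 1-cell stage and 254 at the 2-cell stage. Of these, 960 of 1807 had an oocyte mean under the table's median of 82.6. This is close to the share over all probe sets tested, 11888 of 22511. Those called lower went from a median of 582 in oocytes through 439 at the 1-cell stage to 212 at the 2-cell stage, and 347 of 1452 ended under the table's median. Over all probe sets tested, 10981 of 22511 had a 2-cell mean under it. The median oocyte intensity over all probe sets tested was 74.3, near that of the rises and below that of the falls. Both sets were called on these same values, so their starting levels are no independent result. A change of at least 4-fold was called for 380 probe sets upward and 278 downward, and one of at least 16-fold for 53 and 12.

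**Figure D1:**
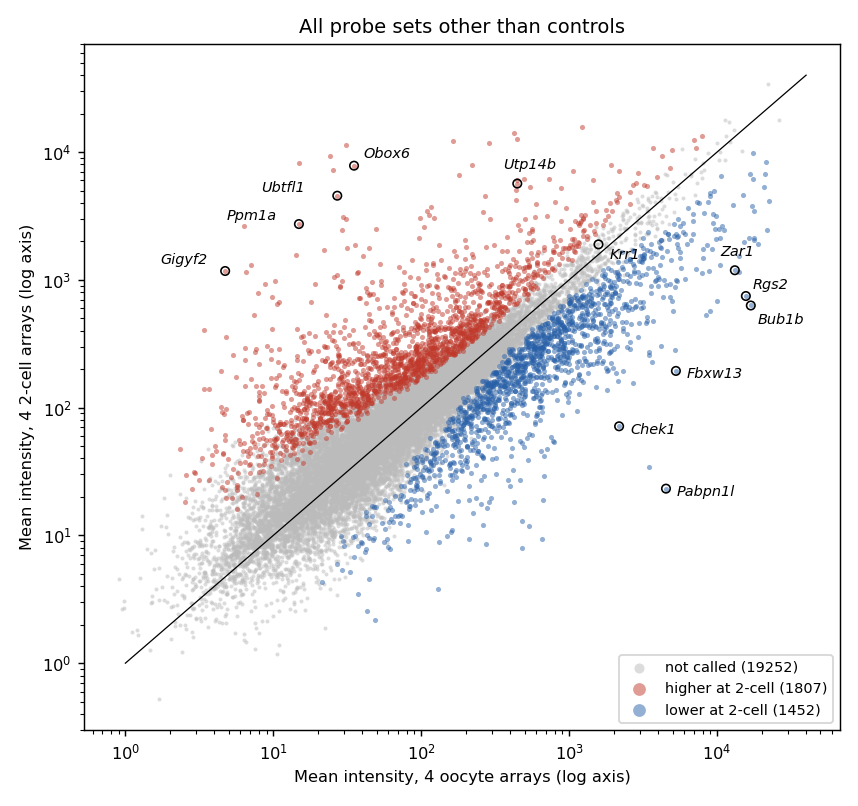
Mean intensity of each probe set at the 2-cell stage (vertical, log axis) against that in oocytes (horizontal, log axis), over 4 arrays each. Colour marks the 1807 probe sets called higher and the 1452 called lower, and circles mark the named genes; Obox6 lies at 35.2 in oocytes and 7828 at the 2-cell stage, and Pabpn1l at 4518 and 23.2.

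The steepest rise among the named genes was that of Obox6, a member of a homeobox family expressed in the oocyte and early embryo. Its intensity was 28.1, 31.8, 47.1 and 33.6 on the oocyte arrays, 51.1, 49.6, 42.5 and 20.2 at the 1-cell stage, and 7923.1, 6919.9, 8848.9 and 7618.3 at the 2-cell stage. No array of the earlier stages came near the 2-cell arrays, and the message was still dim at the 1-cell stage. The difference from oocytes was 7.16 with a standard error of 0.17 (adjusted p = 3.39e-18), or 143-fold.

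Ubtfl1, an HMG-box relative of the ribosomal gene transcription factor UBTF, read 42.0, 30.9, 16.5 and 18.9 in oocytes and 3766.8, 4856.9, 5120.4 and 4482.8 at the 2-cell stage. Its 1-cell arrays ranged from 2.6 to 68.2, overlapping those of oocytes. The difference was 6.63 ± 0.33 (SE, adjusted p = 1.04e-12). Ppm1a, a serine/threonine protein phosphatase that acts on stress-kinase and SMAD signalling, read 13.3, 21.3, 11.1 and 13.9 in oocytes and 2173.0, 3195.2, 3352.4 and 2217.4 at the 2-cell stage, a difference of 6.28. Of its other 4 probe sets 3 were also called higher. Gigyf2, an adaptor that represses translation together with the cap-binding protein 4EHP, stayed between 4.2 and 5.1 on the oocyte arrays and between 4.0 and 11.7 on the 1-cell arrays. At the 2-cell stage it read 960.6, 1120.9, 1521.0 and 1090.4, a difference of 5.57. Its other probe set was called higher too.

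The other 11 of the 15 largest rises had differences between 4.74 and 5.57. Pramel18, of the PRAME-like leucine-rich repeat family, went from 7.10 ± 2.66 to 1314 ± 423. Rfpl4b, a Ret-finger-like gene, went from 40.6 ± 22.7 to 1549 ± 368. These belong to families that are best known from germ cells and early embryos, and the rest are of mixed function. Utp23, a factor for the small ribosomal subunit, went from 31.3 ± 21.8 to 1775 ± 437. Slc19a3, a thiamine transporter, went from 109 ± 32.1 to 3453 ± 413, and Atp13a3, a transport ATPase of polyamines, from 26.8 ± 31.1 to 1096 ± 230. Zfp367, Plaat3, Btbd18, Wdr44, Atf7ip2 and Bri3bp complete the set, each with a 2-cell mean between 927 and 2517. For Wdr44, an effector of the vesicle GTPase Rab11, the other probe set was not called.

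The largest fall was that of Pabpn1l, a poly(A)-binding protein of the oocyte and early embryo, which is known to recruit the machinery that removes poly(A) tails from maternal messages. It read 4451.4, 3414.6, 5194.1 and 5011.1 in oocytes, 1094.0, 1806.6, 1628.1 and 1968.3 at the 1-cell stage, and 23.8, 10.4, 33.6 and 25.1 at the 2-cell stage. The 3 stages did not overlap, and the level went down at each step. The difference between 2-cell embryos and oocytes was -6.72 with a standard error of 0.21 (adjusted p = 2.84e-16).

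Checkpoint kinases were 2 of the 15 largest falls. Bub1b, a kinase of the spindle checkpoint, read 15038.2, 19515.8, 17913.5 and 15196.1 in oocytes and 597.6, 525.0, 966.0 and 431.9 at the 2-cell stage, a difference of -4.76. Chek1, the checkpoint kinase that answers unreplicated or damaged DNA, read 1488.1, 2069.1, 2946.2 and 2204.8 in oocytes and 115.1, 33.2, 50.6 and 86.9 at the 2-cell stage, a difference of -4.64. Both were still near the oocyte level at the 1-cell stage, with means of 17965 ± 4907 for Bub1b and 1676 ± 152 for Chek1.

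Other genes among the largest falls already read low at the 1-cell stage. Fbxw13, an F-box protein gene of an oocyte-expressed cluster, went from 5272 ± 1014 in oocytes to 458 ± 40.9 at the 1-cell stage and 194 ± 94.0 at the 2-cell stage. Ndufc2, a subunit of respiratory complex I, went from 3492 ± 214 to 596 ± 182 and 258 ± 73.6. Mtln, which encodes a mitochondrial micropeptide, went from 671 ± 50.2 to 87.5 ± 50.3 and 29.4 ± 18.1. These messages were lower on all 4 1-cell arrays than on any oocyte array. Rgs2 and Nlrp4b stayed nearer the oocyte level at the 1-cell stage. Rgs2, a regulator of G-protein signalling in the egg, read 15667 ± 1697 in oocytes, 14677 ± 648 at the 1-cell stage and 748 ± 282 at the 2-cell stage. Nlrp4b, of the oocyte NLRP family, read 10032 ± 933, 8455 ± 812 and 683 ± 210. The 1-cell arrays of Rgs2 overlapped those of oocytes. Those of Nlrp4b lay just below, at 7278.8 to 9000.9 against 9051.8 to 11179.7. For Rgs2 and for Ndufc2 the other probe set of the gene was not called. The 2-cell minus 1-cell difference was -4.34 for Rgs2 and -3.63 for Nlrp4b, against -1.27 for Fbxw13, -1.13 for Ndufc2 and -1.02 for Mtln. Whether the early and late falls differ was not tested. The 1-cell arrays carried a high reading of the 18S ribosomal RNA control, with a mean of 37007 against 650 in oocytes. Its part in any 1-cell level given in the text was not tested.

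**Figure D2:**
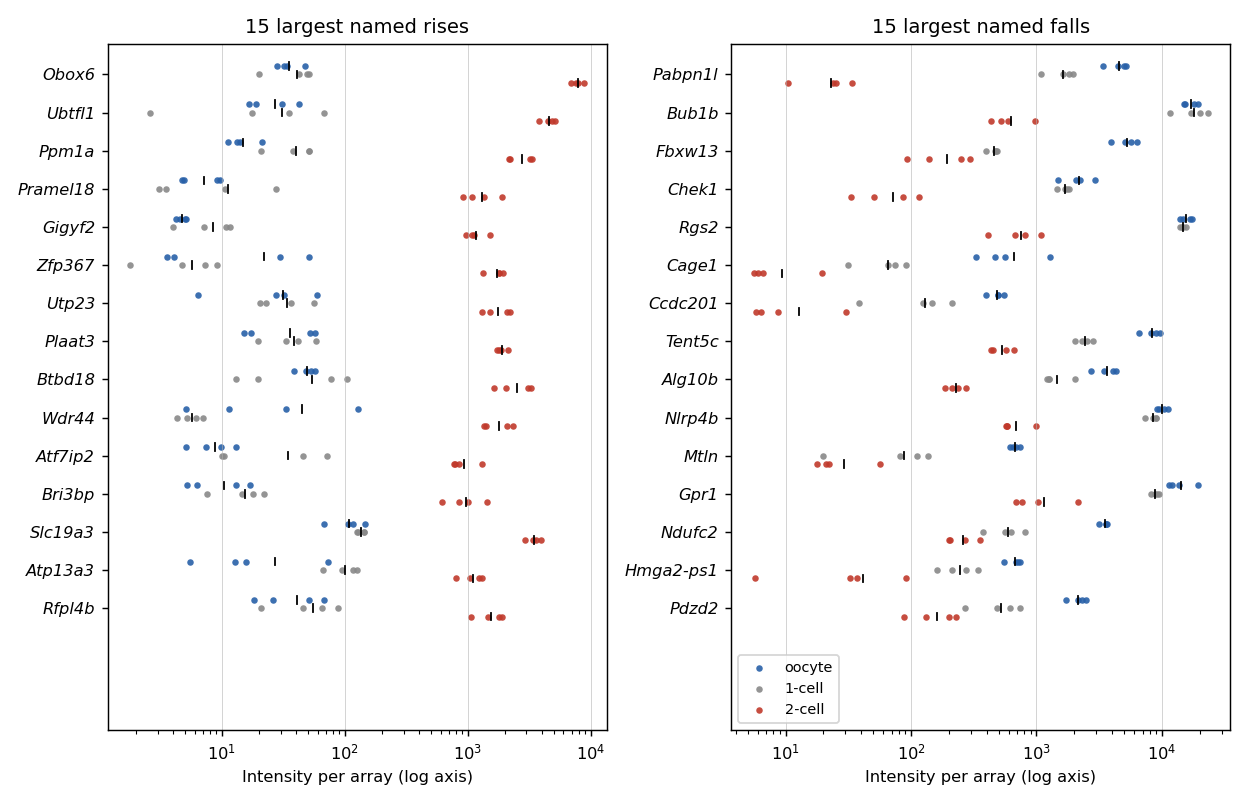
Intensity on single arrays (horizontal, log axis) of the 15 largest rises (left) and the 15 largest falls (right) among named genes, with oocyte, 1-cell and 2-cell arrays in separate colours and black ticks at stage means. Values under 1 would be drawn at 1. By the rule for naming, no gene has a 2-cell array within the range of its oocyte arrays. The 1-cell arrays of Bub1b, Chek1 and Rgs2 overlap those of oocytes.

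The start regions of the steepest rises and falls are shown because those members move in opposite directions across the same interval. They are taken from RefSeq on assembly GRCm38.p6, 250 bases before to 50 after each listed start, printed 5′ to 3′ on the gene's strand. They are the 3 largest rises and 3 largest falls with an entry in that table; Obox6, Pramel18 and Fbxw13 are named only. Capitals mark matches, on either strand, to 6 motifs: TATAAA of the core promoter, CCAAT of nuclear factor Y, GGGCGG of the Sp family, CCGGAAG of Ets factors, TAATCC of some homeodomain proteins, and TGACGT of cyclic AMP response elements. Neighbouring and palindromic matches can overlap.
Ubtfl1, rise, chr9:18404168-18404467, plus strand: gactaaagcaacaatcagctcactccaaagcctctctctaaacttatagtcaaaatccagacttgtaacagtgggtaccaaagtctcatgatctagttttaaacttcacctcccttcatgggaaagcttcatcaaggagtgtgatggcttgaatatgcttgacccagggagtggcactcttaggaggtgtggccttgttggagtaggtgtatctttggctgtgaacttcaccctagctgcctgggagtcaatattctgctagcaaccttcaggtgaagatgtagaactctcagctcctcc
Ppm1a, rise, chr12:72760961-72761260, plus strand: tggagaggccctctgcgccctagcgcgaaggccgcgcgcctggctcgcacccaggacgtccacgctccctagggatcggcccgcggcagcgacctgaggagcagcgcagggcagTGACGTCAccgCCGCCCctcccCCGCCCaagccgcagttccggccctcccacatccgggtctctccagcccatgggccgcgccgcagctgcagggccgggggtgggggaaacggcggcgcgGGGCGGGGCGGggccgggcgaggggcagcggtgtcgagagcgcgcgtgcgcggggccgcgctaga
Gigyf2, rise, chr1:87326748-87327047, plus strand: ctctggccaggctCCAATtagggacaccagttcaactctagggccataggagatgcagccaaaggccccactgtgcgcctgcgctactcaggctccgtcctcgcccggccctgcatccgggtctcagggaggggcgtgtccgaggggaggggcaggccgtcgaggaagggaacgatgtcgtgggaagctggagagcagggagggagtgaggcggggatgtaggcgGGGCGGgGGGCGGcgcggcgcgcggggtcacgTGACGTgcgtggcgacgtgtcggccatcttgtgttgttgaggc
Pabpn1l, fall, chr8:122622686-122622985, minus strand: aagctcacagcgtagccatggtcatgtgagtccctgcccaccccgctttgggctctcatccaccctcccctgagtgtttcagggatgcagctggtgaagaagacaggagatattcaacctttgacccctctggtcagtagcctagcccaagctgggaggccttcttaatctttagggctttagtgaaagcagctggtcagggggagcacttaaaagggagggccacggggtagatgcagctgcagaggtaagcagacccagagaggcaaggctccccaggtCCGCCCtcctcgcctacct
Bub1b, fall, chr2:118597961-118598260, plus strand: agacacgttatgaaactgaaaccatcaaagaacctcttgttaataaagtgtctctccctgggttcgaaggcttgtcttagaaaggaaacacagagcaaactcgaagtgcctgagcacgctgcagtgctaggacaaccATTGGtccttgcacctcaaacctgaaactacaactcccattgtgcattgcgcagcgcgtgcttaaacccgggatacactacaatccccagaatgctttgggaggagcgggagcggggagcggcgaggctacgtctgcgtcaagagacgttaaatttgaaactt
Chek1, fall, chr9:36726609-36726908, minus strand: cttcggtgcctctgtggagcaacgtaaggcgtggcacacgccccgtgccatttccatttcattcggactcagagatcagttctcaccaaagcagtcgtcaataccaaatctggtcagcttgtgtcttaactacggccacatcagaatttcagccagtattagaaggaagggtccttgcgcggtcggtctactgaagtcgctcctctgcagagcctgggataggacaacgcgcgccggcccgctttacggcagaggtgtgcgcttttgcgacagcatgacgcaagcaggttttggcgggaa

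The 3 rises differ from one another in base composition. The Ubtfl1 region holds no CG dinucleotide and none of the 6 motifs, the Ppm1a region holds 42 CG dinucleotides and 6 matches, and the Gigyf2 region holds 27 and 4 matches. Among the falls, the regions of Pabpn1l, Bub1b and Chek1 hold 5, 15 and 22 CG dinucleotides, with 1, 1 and 0 matches. Over all promoters of genes called higher, the median was 21.5 CG dinucleotides, against 19 for genes called lower and 16 for all measured genes. GGGCGG was present in 63.3% of promoters of genes called higher (585 of 924), 56.2% of those called lower (599 of 1065) and 51.8% of all measured (4899 of 9453). TATAAA was in 5.52%, 8.08% and 8.93%, CCGGAAG in 17.4%, 14.9% and 12.9%, and TGACGT in 14.0%, 10.4% and 9.74%. CCAAT was in 39.0%, 39.1% and 37.4%, and TAATCC, of the kind bound by homeodomain proteins such as the Obox family, in 7.04%, 7.04% and 6.36%. These shares are descriptions with no test, and over every promoter in the table GGGCGG was in 35.7% and TATAAA in 13.6%.

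A message higher at the 2-cell stage than in oocytes can already be raised at the 1-cell stage, so messages above both earlier stages were called on their own. At the 2-cell stage 1092 probe sets (4.85%) were above both the oocyte and the 1-cell arrays by limma, with medians of 73.9 in oocytes, 68.7 at the 1-cell stage and 325 at the 2-cell stage. For 462 of them both earlier means lay under the table's median and the 2-cell mean at or above it. The same count over all probe sets was not made. All 8 genes with the largest such rise were among the steepest rises already described: Obox6, Ubtfl1, Ppm1a, Zfp367, Pramel18, Gigyf2, Btbd18 and Wdr44. Their oocyte and 1-cell means did not exceed 53.7.

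A dip at the 1-cell stage, with both oocytes and 2-cell embryos higher, was called for 165 probe sets (0.733%). Their medians were 455 in oocytes, 131 at the 1-cell stage and 606 at the 2-cell stage. The counts of probe sets above both earlier stages and of dips were 1115 and 142 without 2-cell replicate 1. The 1-cell arrays also carried a high reading of the 18S ribosomal RNA control, at 37007 ± 4510.1 against 650 ± 197 in oocytes and 2004 ± 308 at the 2-cell stage, and its part in the dips was not tested.

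Psmc3ip, a partner of the recombinases of meiosis, shows such a return. It read 1196.1, 956.3, 1188.8 and 1784.5 in oocytes, 43.8, 18.5, 82.0 and 71.0 at the 1-cell stage, and 1376.5, 1303.7, 2112.4 and 1802.0 at the 2-cell stage. The oocyte and 2-cell arrays overlap, and all lie far above the 1-cell arrays. Dips were named only where the 1-cell arrays lay below those of both other stages. The 95% interval of 2-cell minus oocyte ran from -0.17 to 0.91. Rpl22, a protein of the large ribosomal subunit, read 5431 ± 979, 961 ± 172 and 5354 ± 813 at the 3 stages, with an interval from -0.46 to 0.43. Krr1, a factor of small-subunit assembly, read 1580 ± 64.3, 303 ± 41.8 and 1896 ± 238, with an interval from -0.05 to 0.55. Pfdn6 (a prefoldin subunit), Pum3, Sdhaf3 (an assembly factor of respiratory complex II), Kctd6 and Prorp (the nuclease of mitochondrial RNase P) had the same course, with oocyte means of 522 to 3164, 1-cell means of 136 to 651 and 2-cell means of 606 to 3790. For Krr1 quantile normalization gave a 2-cell level above oocytes, at a difference of 0.52 (adjusted p = 0.0207).

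Some abundant messages changed little. The interval of 2-cell minus oocyte lay within 0.5 of 0 for Kbtbd8, a ubiquitin ligase adaptor (8048 ± 1122 in oocytes and 8242 ± 1972 at the 2-cell stage), Togaram1, a microtubule regulator of cilia (4158 ± 526 and 4356 ± 967), Tent4a, a poly(A) polymerase (3396 ± 431 and 3467 ± 461), and Socs7 (3443 ± 702 and 3141 ± 110). In these 4 the 1-cell mean was the highest, at 11269.8 for Kbtbd8, 4576 for Togaram1, 6304 for Tent4a and 6399 for Socs7.

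**Figure D3:**
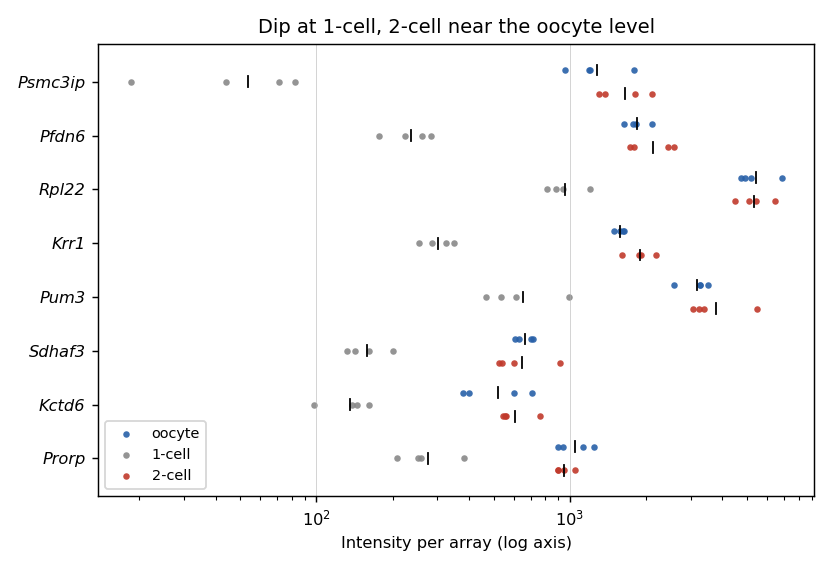
Intensity on single arrays (horizontal, log axis) of the 8 named dips, by stage, with black ticks at stage means. The oocyte and 2-cell arrays of Psmc3ip lie between 956.3 and 2112.4, and its 1-cell arrays between 18.5 and 82.0.

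Genes were next read by function, in 18 lists with 1 probe set per gene. As background, 931 of 9607 named genes (9.69%) were higher at the 2-cell stage and 1032 (10.7%) lower, with a median difference of 0.04. Of 49 measured oocyte and maternal-effect genes, 28 were lower, 5 higher and 16 not called, with a median difference of -1.14. Without 2-cell replicate 1 the counts were 31 lower and 4 higher. The median log2 level of cumulus and granulosa cell markers was also lower on the 2-cell arrays, at 6.66 to 7.09 against 7.24 to 7.43 in oocytes. Their median difference per gene was only -0.04, and of 18 measured 1 was higher, 2 lower and 15 not called. The part of these markers in the falls was not tested. The lists were chosen with earlier results of these data known, so their directions are no independent evidence.

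The maternal-effect genes that fell included components of the subcortical maternal complex and its partners. Ooep, a member of that complex, went from 21624 ± 2466 to 2469 ± 981, Khdc3, another member, from 2305 ± 358 to 396 ± 196, and Padi6, which is needed for the cytoplasmic lattices of the egg, from 18815 ± 1532 to 1920 ± 277. Zar1, an RNA-binding protein of the maternal store, read 12170.2, 13658.7, 12871.3 and 14074.6 in oocytes and 1370.7, 930.0, 1506.0 and 951.3 at the 2-cell stage, and its 1-cell mean was 14685 ± 2339. Dnmt1, the maintenance DNA methyltransferase, went from 9009 ± 976 to 572 ± 291 on a probe set that may cross-hybridize. In the F-box cluster Fbxw16, Fbxw18, Fbxw19, Fbxw21 and Fbxw22 fell, with differences between -3.11 and -2.36, and these paralogues can share sequence.

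Not all oocyte genes fell. Bmp15, an oocyte growth factor, read 2793 ± 305 in oocytes and 2246 ± 597 at the 2-cell stage and was not called (adjusted p = 0.62), although its other, dimmer probe set was called lower. The 5 that were higher are Taf4b, a TFIID subunit of the germ line (876 ± 114 to 2891 ± 455), Meioc, a meiosis regulator (14.6 ± 12.6 to 186 ± 14.6), Slbp, which binds the stem-loop of histone messages (88.5 ± 30.8 to 211 ± 54.2), Ago2, the slicer Argonaute (171 ± 37.5 to 341 ± 82.9), and Wee2, the oocyte kinase that inhibits CDK1 (7956 ± 599 to 13296 ± 3355). Wee2, whose probe set may cross-hybridize, lost its call under median scaling (0.49, adjusted p = 0.193), without the intensity trend, in a fit to oocyte and 2-cell arrays alone, and without 2-cell replicate 1 or 2 or oocyte replicate 1, 3 or 4.

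Of 30 measured zygotic activation genes, 15 were higher, 2 lower and 13 not called, with a median of 0.68. Beside Obox6, Ubtfl1, Pramel18 and Rfpl4b, Ifi35, an interferon-induced protein, went from 104 ± 55.1 to 2590 ± 330, Speer4cos from 37.4 ± 13.02 to 1152 ± 323, and Ddit4l, an inhibitor of mTOR signalling, from 172 ± 29.8 to 1528 ± 310. The transcription factors Klf17 and Prdm14 went from 4930 ± 704 to 10417 ± 2017 and from 54.8 ± 23.6 to 258 ± 61.8. The 2 lower members were Pramel13, at 5643 ± 872 and 2640 ± 770, and Zfp750, at 1873 ± 413 and 451 ± 142.

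Genes of ribosome production and of transcription were more often called higher than lower. Of 77 measured genes for ribosome biogenesis and RNA polymerase I, 25 were higher and 9 lower, with a median of 0.31. Utp14b, a retrogene of a small-subunit factor, read 403.4, 456.5, 478.0 and 446.9 in oocytes and 5410.6, 5065.9, 6402.3 and 5806.5 at the 2-cell stage, a difference of 3.61. Its 1-cell mean was 419 ± 85.3, and the 1-cell arrays overlapped those of oocytes. Nob1, the nuclease that finishes 18S rRNA, went from 200 ± 33.9 to 1812 ± 263, Tsr1 from 596 ± 52.9 to 3892 ± 941, Pdcd11 from 184 ± 29.8 to 1137 ± 278, and Twistnb, a subunit of RNA polymerase I, from 279 ± 92.8 to 1089 ± 377. Noc4l, whose probe set may cross-hybridize, and Bms1, both assembly factors, went the other way, from 5252 ± 1644 to 996 ± 389 and from 21074 ± 2506 to 6735 ± 1054.

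Of 66 genes of the RNA polymerase II and III machinery, 21 were higher and 7 lower, with a median of 0.24. Polr2f, a subunit shared by the RNA polymerases, read 1235.0, 1514.8, 1556.7 and 1499.1 in oocytes and 5740.3, 5273.9, 6909.1 and 6387.3 at the 2-cell stage, a difference of 2.05. Med13, of the Mediator kinase module, went from 94.7 ± 14.99 to 1026 ± 76.3. The elongation kinase Cdk9 and its cyclin Ccnt1 went from 69.4 ± 40.4 to 260 ± 58.7 and from 80.6 ± 25.9 to 599 ± 236. Leo1, of the PAF complex, and Ints6, of Integrator, were lower, at 758 ± 51.9 and 247 ± 35.1, and at 345 ± 136 and 58.7 ± 5.79. Without 2-cell replicate 2 the lower count was 4.

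In pre-mRNA splicing 20 of 76 genes were higher and 9 lower, with a median of 0.30. Snrnp35, of the minor spliceosome, went from 99.5 ± 35.9 to 910 ± 97.9, and Snrpb, a core Sm protein, from 352 ± 158 to 1175 ± 351. A pair of spliceosomal factors fell by different courses: Ppil3 went from 3474 ± 364 in oocytes to 326 ± 107 at the 1-cell stage and 272 ± 25.7 at the 2-cell stage, whereas Zcrb1 read 9910 ± 605, 10226 ± 980 and 2100 ± 309. Median scaling gave 14 higher and 11 lower. In nuclear pore and transport 7 of 38 were higher and 3 lower. Xpot, the exporter of transfer RNA, went from 108 ± 62.4 to 1324 ± 99.5, and Nup54, of the pore's central channel, from 5911 ± 988 to 2356 ± 758. Median scaling, array weights and leaving out oocyte replicate 2 each gave 5 lower.

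**Figure D4:**
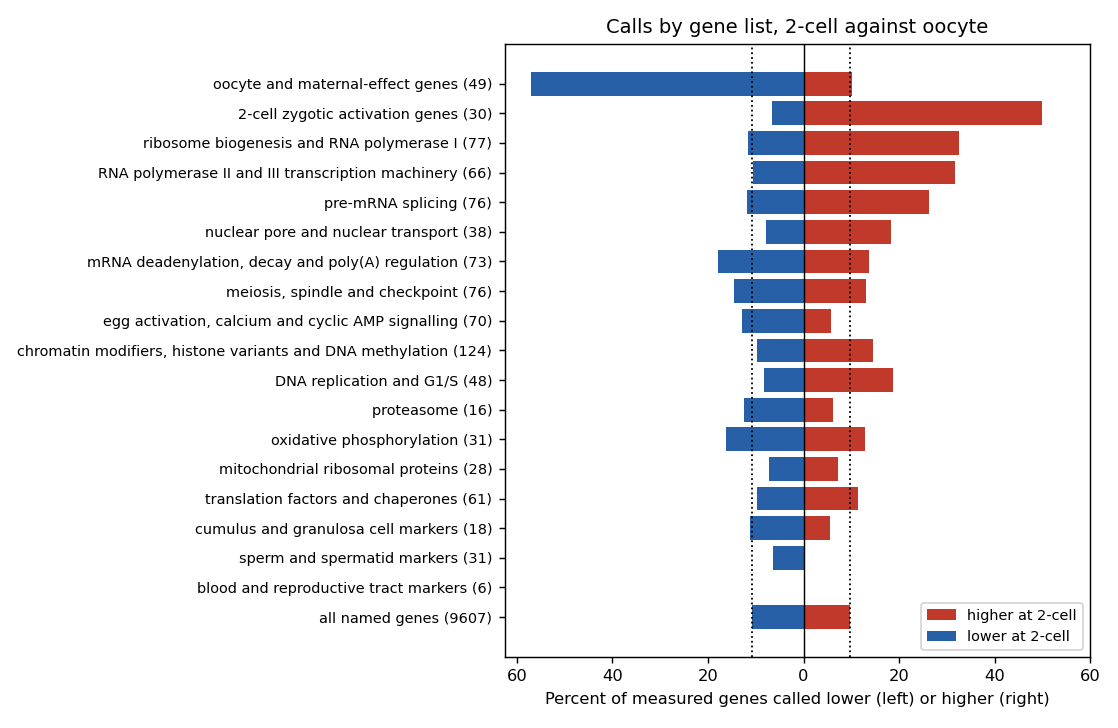
Percent of measured genes called higher and called lower at the 2-cell stage against oocytes for each of the 18 lists, with bars from 0 and dotted lines at the shares over all named genes (9.69% higher and 10.7% lower). Zygotic activation genes (15 of 30 higher) and oocyte and maternal-effect genes (28 of 49 lower) lie farthest from the lines.

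Genes of mRNA decay and poly(A) control had calls both ways. Of 73 measured, 10 were higher (13.7%) and 13 lower (17.8%), against 9.69% and 10.7% of all named genes. Their median of 0.05 turned to -0.10 under median scaling. Tent5c, a poly(A) polymerase, read 6594.3, 8229.3, 8985.2 and 9694.2 in oocytes and 661.0, 575.0, 450.5 and 431.7 at the 2-cell stage, a difference of -3.94. Patl2, an oocyte RNA-binding repressor, went from 2282 ± 302 to 472 ± 35.6, and Cnot11, of the CCR4-NOT deadenylase, from 5215 ± 213 to 883 ± 165. Beside Gigyf2, Cpsf6, of the 3′ end cleavage factor, rose from 380.0 ± 118 to 2151 ± 525, and Rc3h2, a Roquin protein, from 49.2 ± 16.6 to 379 ± 96.3.

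Genes of meiosis and the spindle also had calls both ways. Of 76 measured, 10 were higher (13.2%) and 11 lower (14.5%), not far from the 9.69% and 10.7% of all named genes. Their median of 0.03 turned to -0.18 under median scaling. Mad2l1bp, which helps to silence the spindle checkpoint, read 368.2, 483.9, 392.5 and 517.0 in oocytes, had a 1-cell mean of 799 ± 109, and read 5108.1, 4539.6, 5338.9 and 5042.5 at the 2-cell stage. Its rise of 3.46 stands beside the fall of Bub1b in the same checkpoint. Cdc25c, a phosphatase that activates CDK1, went from 167 ± 32.6 to 1679 ± 511 on a probe set that may cross-hybridize, and Nek2, a centrosome kinase, from 2718 ± 461 to 5481 ± 383. Spc24 and Cenpp, of the kinetochore and centromere, went from 983 ± 94.8 to 121 ± 61.8 and from 1337 ± 221 to 218 ± 45.2. For Cenpp 1 other probe set was called lower and 1 higher.

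In DNA replication and G1/S 9 of 48 genes were higher and 4 lower, with a median of 0.04 that turned to -0.10 under median scaling. Ccne1, cyclin E1 of the G1/S transition, went from 268 ± 60.3 to 4524 ± 843 on a probe set that may cross-hybridize. E2f7, a repressor of E2F targets, went from 102 ± 16.9 to 320.3 ± 58.4. Rnaseh2a and Rnaseh2b, of the enzyme that removes ribonucleotides from DNA, were lower, at 397 ± 105 and 87.1 ± 48.8, and at 587 ± 24.6 and 74.0 ± 91.9. In egg activation, calcium and cyclic AMP signalling, where Rgs2 is a member, 4 of 70 were higher and 9 lower. Astl, the egg's cortical granule protease that cleaves the zona protein ZP2, went from 4399 ± 393 to 989 ± 78.7, and Stim2, a calcium sensor of the endoplasmic reticulum, from 594 ± 69.1 to 133 ± 22.2.

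Chromatin genes gave 18 higher and 12 lower of 124, with a median of 0.14 that turned to -0.03 with 12 higher and 17 lower under median scaling. Pcgf5, of a Polycomb complex, read 484.0, 707.3, 538.1 and 433.4 in oocytes and 6202.7, 6108.3, 5210.7 and 3798.2 at the 2-cell stage, a difference of 3.25. Kansl1, of an acetyltransferase complex, went from 25.9 ± 15.9 to 1045 ± 179, while Kat8, the acetyltransferase of that complex, went from 2978 ± 288 to 462 ± 144. Kat8 was already at 710 ± 275 at the 1-cell stage. Kdm5a, a demethylase of histone H3, went from 27.8 ± 23.1 to 251 ± 49.4, Tet1, which oxidizes 5-methylcytosine, from 57.1 ± 33.8 to 291 ± 61.2, and Kdm1b, a demethylase of the growing oocyte, from 2524 ± 604 to 940 ± 161. For Kansl1 the other 2 probe sets of the gene were not called.

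Lists of energy, protein turnover and translation had calls in both directions, as had all named genes, at 9.69% higher and 10.7% lower. Of 16 proteasome genes 1 was higher (6.25%) and 2 lower (12.5%). Of 31 genes of oxidative phosphorylation the counts were 4 (12.9%) and 5 (16.1%), and of 61 translation factors and chaperones 7 (11.5%) and 6 (9.84%). Psmb5, a catalytic subunit, was higher, at 1317 ± 120 and 2187 ± 503, and lost its call under median scaling (adjusted p = 0.0731). Psmc5 and Psma1 were lower, at 1897 ± 366 and 371 ± 92.7, and at 2937 ± 655 and 1153 ± 172. Cox11, an assembly factor of cytochrome oxidase, went from 243 ± 45.2 to 849 ± 140, and Pfdn4, a prefoldin subunit, from 14048 ± 959 to 1536 ± 413. With median scaling 10 translation factors and chaperones were lower. Of 28 mitochondrial ribosomal proteins 2 were lower, Mrpl9 and Mrps27, and 2 were higher, Mrpl43 and Mrps6. Neither Mrpl43 nor Mrps6 was called under median scaling or without 2-cell replicate 3 or 4, and Mrps6 was not called without the intensity trend or without oocyte replicate 1 or 2.

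Several of the genes named from the lists have other probe sets, none of which was called. These are Ppil3, Zcrb1, Nup54, Stim2, Psma1, Cox11 and Cyp11a1, and Wee2, Ints6, Rc3h2, Cnot11, Nek2 and Hsd17b7. For Cpsf6 only 1 of 5 other probe sets was also called higher, and for Kdm5a only 1 of 4.

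Markers of other cells that a sample could hold were looked for last. Of 18 measured cumulus and granulosa cell markers 1 was higher and 2 lower, and their median difference per gene was -0.04. The list's median log2 level was lower at the 2-cell stage, at 6.66 to 7.09 against 7.24 to 7.43 in oocytes, with no overlap. Their summed intensity was 3836 to 4714 in oocytes and 4546 to 5316 at the 2-cell stage. Without Amhr2, left out after its values were seen, the sums were 3664 to 4529.9 in oocytes, 3567 to 4074 at the 1-cell stage and 2530.3 to 2914 at the 2-cell stage. The 2-cell range thus lay below both others, which overlap each other. Amhr2, the only marker called higher, was left out, while those called lower were kept. Among these is Hsd17b7, with means of 1266 in oocytes and 246 at the 2-cell stage. No sum was made without it, and 15 of the 18 markers were not called, so this is no fall of the list as a whole. Amhr2, a receptor of anti-Müllerian hormone, was the higher one, from 196 ± 23.3 to 2053 ± 284 on a probe set that may cross-hybridize, as may that of Hsd17b7. Hsd17b7 and Cyp11a1, enzymes of steroid synthesis, were lower, from 1266 ± 270 to 246 ± 26.2 and from 178 ± 19.1 to 73.9 ± 38.0. Foxl2, a defining granulosa cell factor, read 760 ± 96.3 and 579 ± 57.9 and was not called, and no mean of this list was at 0, the lowest being Tnc at 4.90 and 3.45. Of 31 sperm and spermatid markers 2 were lower and 0 higher, with sums of 2772 to 3771 and 2489 to 3287. The lower ones were Tekt4 and Spaca4, and Spaca4 was not called without any 1 of 2-cell replicates 2, 3 and 4 or oocyte replicates 2, 3 and 4. Of 6 blood and reproductive tract markers 0 were called by limma. At an unadjusted p under 0.05 by limma, 2 sperm markers were higher and 4 lower. By the same measure 1 blood or tract marker was higher and 0 lower, and 1 cumulus or granulosa marker was higher and 3 lower. The share of all named genes at this looser threshold was not counted, so these counts have no background beside them. The part of other cells in the results was not tested.

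The control probe sets on the array add transcripts outside the main count. Transferrin receptor, the cell's iron uptake receptor, is represented by 3 controls, and its 3′ control read 62.0, 93.7, 38.7 and 76.3 in oocytes, 94.8, 64.5, 58.6 and 84.1 at the 1-cell stage, and 1454.4, 1780.4, 2502.3 and 2220.9 at the 2-cell stage. The 2-cell arrays lay far above all others, at a difference of 4.53, and the controls nearer the 5′ end differed by 2.16 and 0.84. The B2 repeat, a short interspersed element, went from 1137 ± 378 to 3924 ± 1091 on one control and from 21179 ± 3206 to 37303 ± 5799.7 on the other. The B1 repeat went from 8483 ± 1932 to 3938 ± 448 and was at 3522 at the 1-cell stage. On each of these 6 controls and on the middle 18S control the groups did not overlap. The 2-sided exact permutation test of 4 against 4 arrays gave p = 0.0286, the smallest it allows, and an adjusted p of 0.082. Of 66 tests 23 gave this p, and 0 passed the threshold after Benjamini-Hochberg adjustment.

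The 3′ to 5′ ratio of Actb, a measure of how complete the amplified RNA is, was 2.36 ± 0.12 in oocytes and 2.28 ± 0.22 at the 2-cell stage on the log2 scale. That of Gapdh was 1.99 ± 0.19 and 2.22 ± 0.34. In both the groups overlapped.

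**Figure D5:**
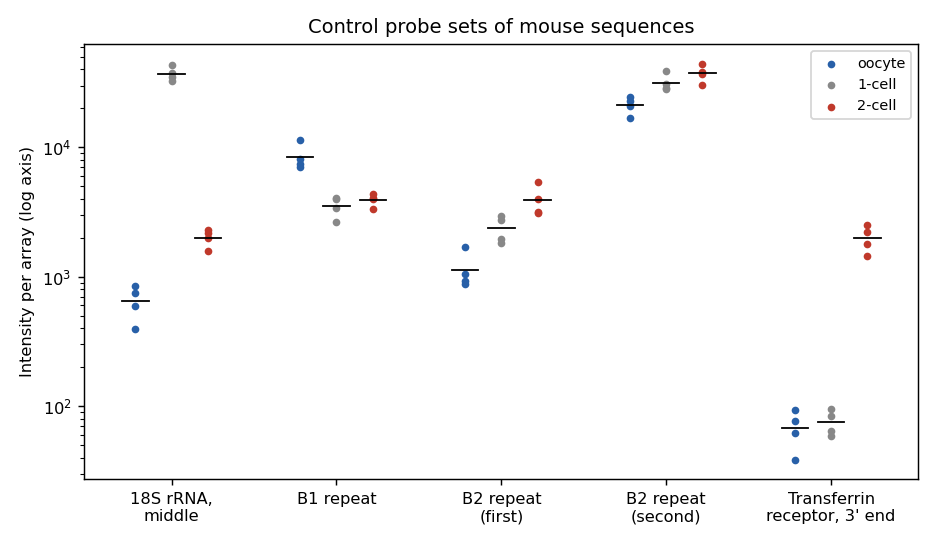
Intensity on single arrays (vertical, log axis) of the middle 18S, B1, both B2 and 3′ transferrin receptor controls, by stage, with black ticks at stage means. The 3′ transferrin receptor control is at 38.7 to 94.8 on the earlier arrays and 1454.4 to 2502.3 at the 2-cell stage, while 18S is highest on the 1-cell arrays.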

How the data were processed

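The authors deposited 1 linear intensity per probe set, for 22575 probe sets of which 64 are controls. Per the labels, total RNA went through 2 rounds of in vitro transcription. How probes were scanned and summarized is not given in the sources used. Computed from the values, the 2% trimmed mean is 150.02 to 150.04 on every array, so arrays had been scaled to a common mean. There are no detection calls, and precision is limited by the number of arrays. No 2 of the 8 arrays shared values at more than a few probe sets (99.7% or more differed).

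Stages came from the sample titles. Symbols came from the platform annotation, with 14486 of 14661 single symbols found by Entrez identifier in the RefSeq table of GRCm38.p6; the 245 with several symbols and the 7605 without one were tested but not named. Stage means were fitted to log2(value + 20) in limma 3.58.1 (R 4.3.3) with an intensity trend over all 20 arrays (15 residual degrees of freedom), with Benjamini-Hochberg adjustment. Levels above both earlier stages, and dips, were called from the larger of 2 one-sided p-values, adjusted likewise. A gene's probe set was the one with the highest mean. The fit was checked on simulated data.

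Named genes have 1 symbol, no x_at probe set and no clone name, arrays of the 2 stages that do not overlap and a higher stage mean at or above 82.6, the table median: the 15 largest rises and falls, 8 largest levels above both stages, 8 dips whose interval lies within 1 of 0, 5 brightest genes with an interval within 0.5 of 0, and up to 4 called members of a list by p, or 2 brightest where none is called. Non-overlap was not asked of genes near 0 or of uncalled members. Other members, 73 of them examined, were named after their values were seen, and may be of the x_at type, which can cross-hybridize. Members and lists were chosen with earlier results of these data known. Of 92 named probe sets 40 have another for the gene; 18 had one called the same way and 0 the opposite way. Alternatives were pseudocounts of 5 and 80, 2 filters on dim probe sets, median and quantile scaling, no trend, array weights, no x_at or s_at probe sets, a replicate block, only the compared stages, and each array left out in turn.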

Additional observations from a re-analysis of the deposited data

Results flagged for a closer look

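Of 196 groups of 4 arrays examined for 1 value far from the others, 21 had one, where chance gives about 1 in 20. Of these, 10 concern 2-cell replicate 1 and 4 concern 2-cell replicate 3, against 0 for 2-cell replicates 2 and 4.

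2-cell replicate 1 had a median intensity of 80.9 where the nearest other 2-cell array had 87.2. It correlated with the oocyte mean at 0.857, against 0.828, and its mean log2 level over the probe sets called lower was 7.97, against 7.78. It was the highest 2-cell array for Atf7ip2 at 1298.3 (nearest other 853.1), Ccdc201 at 30.6 (8.7), Nlrp4b at 998.1 (581.0), Rnaseh2b at 211.0 (36.2), Uqcrh at 379.4 (247.4) and Pfdn4 at 2148.4 (1410.6). For Cdc14b it was the lowest at 799.0 (1110.9). Apart from Atf7ip2 and Cdc14b, which rose, these genes were called lower against oocytes.

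2-cell replicate 3 was highest for Cage1 at 19.6 (6.6), Mtln at 56.3 (22.3), Pum3 at 5458.6 (3396.5) and Kctd6 at 765.2 (561.0).

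Among oocytes, replicate 2 was highest for Atp13a3 at 73.0 (15.8), Kbtbd8 at 9712.7 (7713.2) and Ahctf1 at 52.0 (21.1). Replicate 1 was highest for Mrpl9 at 3186.2 (2016.5) and Deup1 at 151.5 (34.2), replicate 3 for Ndufaf6 at 924.6 (526.4), and replicate 4 was lowest for Nup54 at 4436.7 (6268.8).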

How the results depend on the processing

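Every count of calls over all probe sets stayed within 1.5 times its value under each alternative run. With 1 array left out the counts were 1462 to 1718 higher, 1244 to 1412 lower, 931 to 1115 above both earlier stages and 116 to 171 dips. Median scaling gave 1304, 1960, 763 and 111, and quantile normalization gave 1519 and 1436 higher and lower. With the replicate block the counts were 1763 higher, 1426 lower, 1088 above both and 159 dips. Same-numbered oocyte and 2-cell arrays did not deviate together (r from -0.02 to 0.02). The labels do not say whether the numbers pair the samples. Of 1725 values of named genes under the alternatives, 1708 kept their direction and their side of the threshold, 16 lost a call and 1 gained one, in 5 genes, and 0 reversed. Of 1365 values of the genes named after their values were seen, 10 gained or lost a call, in Wee2, Chd1 and Obox5, and 0 reversed. List medians moved by more than their spread in 60 of 361 values and list counts by over 1.5 times in 28 of 722. Signal near background limits the dim side: a fold for a gene that is dim at one stage depends on the added 20.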

Other observations

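Probe sets with no gene symbol were unevenly placed among the calls. Of the 1807 probe sets called higher at the 2-cell stage, 480 carry no symbol and 1293 carry 1. Of the 1452 called lower, 119 carry none and 1309 carry 1. Over all 22511 probe sets 7605 carry none. Among the 1092 above both earlier stages, 816 carry 1 symbol. What these unnamed probe sets detect was not tested.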
